A study of Homo sapiens with 2 samples.

Results

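The D-type cyclins (CCND1, CCND2, CCND3), the E-type cyclins (CCNE1, CCNE2), their kinases (CDK4, CDK6, CDK2) and the retinoblastoma gene RB1 were followed in 2 populations of Panc1, an established human line derived from ductal adenocarcinoma of the pancreas. They were chosen by gene symbol: all probe sets whose platform annotation gives 1 symbol, and that symbol is one of these 9 genes. This gave 25 probe sets, out of 41097 with 1 symbol and 54675 on the array, and 9 genes out of 19775. A probe set is a group of short probes that reads 1 or more transcripts, mostly near the 3' end. The first population, Panc1/syk-wt (here syk), carried stably introduced wild-type SYK, which encodes a cytoplasmic tyrosine kinase, and the second, Panc1/mock (here mock), carried the vector only. Both are described as stable populations kept under hygromycin, passaged for 2 months below confluence and taken at about 70% confluence. The series title calls the mock cells drug-resistant, and no label names the promoter that drives SYK. Each population had 1 array, hybridised with cRNA made from 100 ng of total RNA, so there is no replicate error and no difference was tested.

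In the textbook pathway, growth signals raise the D-type cyclins, which bind CDK4 or CDK6 and begin to phosphorylate the RB protein. RB then lets go of the E2F transcription factors, which switch on the E-type cyclins among other genes. Cyclin E with CDK2 completes RB phosphorylation and starts DNA replication. Loss of restraint on this step is common in pancreatic cancer.

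Levels are RMA values, background-corrected and quantile-normalised log2 intensities, and a difference is the syk value minus the mock value on that scale. Medians over all probe sets were 4.24 on the syk array and 4.26 on the mock array. SYK itself gave no clear check of the labels: its brightest probe set read 4.73 on the syk array and 4.27 on the mock array, and the other 3 were higher on the mock array. Both SYK values lay below 4.77, the highest signal of 27 control probe sets against bacterial transcripts, which was taken as the floor for dim signal. Whether the SYK probe sets match the transfected sequence was not analysed here, and every direction below rests on the array labels. The 6 markers of the line (KRT7, KRT8, KRT18, KRT19, SOX9 and VIM) were above the floor on both arrays, whereas the 12 measured markers of leukocytes, endothelium, fibroblasts, acinar and islet cells were at or below it on both. For ACTB, the control probe sets at the 3' end exceeded those at the 5' end by 2.37 on the syk array and by 1.95 on the mock array. For GAPDH, the same excess was 0.32 on the syk array and 0.19 on the mock array. The part of this uneven signal along transcripts in the results was not tested. Effects of the population, of its RNA extract and of its array cannot be told apart, nor can a shift in the share of cells in a cycle phase and a shift in RNA per cell.

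CCND2 and CCNE2 were the members more than 2-fold higher on the syk array. CCNE1 and CDK6 were also higher, by less than 2-fold. CCND1, CCND3, CDK4, CDK2 and RB1 differed by at most 0.37 at the probe set used for the gene, its brightest by the mean of the arrays. All 9 genes passed the filter on dim signal, a mean at or above 4.25, the 50th percentile of all probe sets. Of the 9, 2 differed at least 2-fold, both higher on the syk array, against 7.26% of the 12814 genes past the filter in either direction, 3.61% higher and 3.65% lower. By probe set, 17 of the 25 passed the filter and 4 of these 17 were at least 2-fold higher, against 3.33% of the 23066 named probe sets past the filter, while 0 were at least 2-fold lower (background 3.48%). These 4 belong to 2 genes and are not independent. The 2 of CCND2 had mock values below 4.25 and passed the filter only through the syk array, where they are high. The count of 4 probe sets and the count of 2 genes, which includes CCND2, are therefore descriptions only. The median difference was 0.16 over the 9 genes and 0.01 over all genes. As a guide to probe behaviour, probe sets that read the same gene had a pooled SD of 0.35 in their differences (6028 genes). It covers no variation between cultures.

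**Figure D1:**
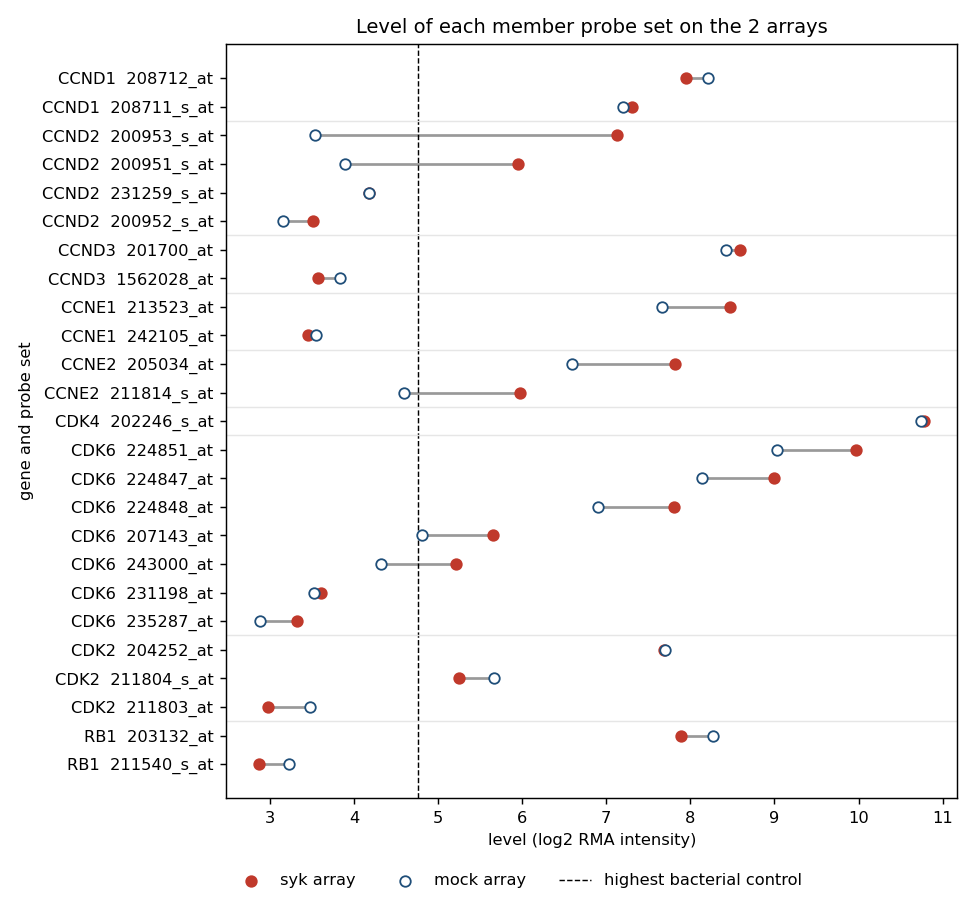
Level of each of the 25 probe sets (log2 RMA intensity, horizontal axis) on the syk array (filled red) and the mock array (open blue), with a dashed line at 4.77, the highest bacterial control. The 2 brighter CCND2 probe sets cross the line between the arrays, and both CCNE2 probe sets and the 5 brightest of CDK6 lie further right on the syk array. Positions along the axis can be compared within a probe set, not between probe sets.

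Among the D-type cyclins, only CCND2 passed 2-fold. Probe set 200953_s_at read 7.13 on the syk array and 3.53 on the mock array. Probe set 200951_s_at read 5.95 on the syk array and 3.89 on the mock array. Both mock values are below the floor and both syk values above it, so CCND2 exceeded the highest bacterial control only on the syk array. The next highest control read 3.61, below the mock value of 200951_s_at, so absence of CCND2 from the mock cells is not shown. The measured differences were 3.60 and 2.05. Set against the floor, CCND2 was at least 5.16-fold higher by the first and at least 2.27-fold by the second. With the floor set under all 12814 genes, CCND2 differed by 2.37 and 38 genes had a larger positive difference. This rank is a description only, since it uses the brightest CCND2 probe set, which passed the filter through the syk array alone. The other 2 CCND2 probe sets stayed at or below the floor on both arrays: 200952_s_at read 3.51 on the syk array and 3.15 on the mock array, and 231259_s_at had the same value, 4.18, on both. Exactly equal values occurred in 2189 (4.0%) of all probe sets. The CCND2 probe sets thus disagree in size, and the difference was 1.5 with the mean and 1.35 with the median over all 4. Both were taken without the floor, and with the floor both fall under 2-fold. Which part of the transcript each one reads was not analysed here.

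CCND1, the D-type cyclin gene often amplified in epithelial tumours, was bright on both arrays, and its probe sets had opposite signs. Probe set 208712_at read 7.95 on the syk array and 8.21 on the mock array, a difference of -0.27. Probe set 208711_s_at read 7.30 on the syk array and 7.20 on the mock array, a difference of 0.10. Both differences are within the pooled SD between probe sets of a gene. CCND3 had 1 probe set past the filter, 201700_at, with 8.59 on the syk array and 8.43 on the mock array. Its difference of 0.16 is also within that SD, and it became -0.05 when both CCND3 probe sets were averaged. The dim CCND3 probe set, 1562028_at, was below the floor on both arrays. The 3 D-type cyclins share the same kinase partners. At the brightest probe set of each, the differences were -0.27 for CCND1, at least 2.37 for CCND2 against the floor, and 0.16 for CCND3. The other CCND2 probe sets gave 1.18, 0 and 0 with the floor, so 2.37 is no lower bound for the gene.

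**Figure D2:**
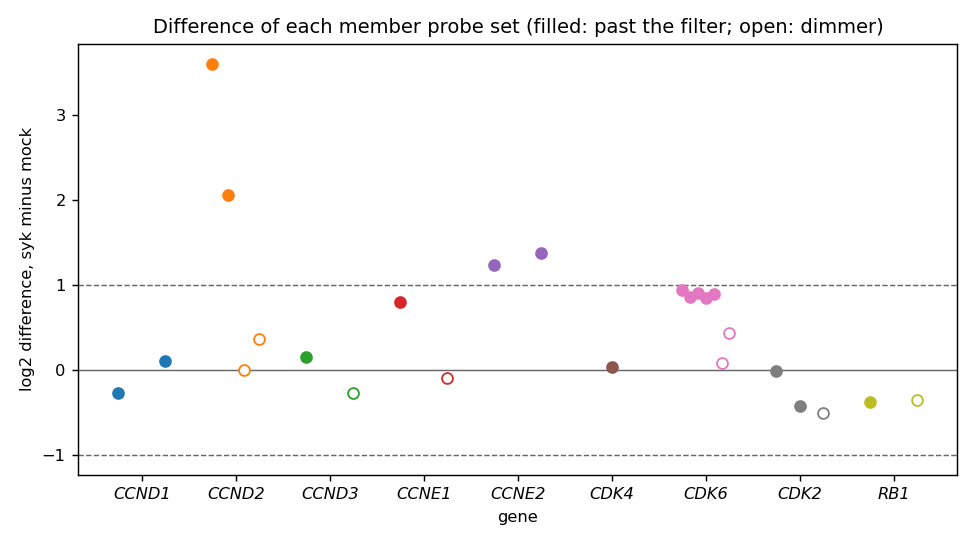
Log2 difference, syk minus mock (vertical axis), of each of the 25 probe sets by gene. Filled points passed the filter on dim signal and open points did not, and dashed lines mark 2-fold. CCND2 reaches 3.60 and CCNE2 1.37, the 5 filled CDK6 points lie between 0.84 and 0.94, and the other filled points except that of CCNE1 lie between -0.42 and 0.16.

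Both E-type cyclins, which activate CDK2 at the start of S phase, were higher on the syk array. For CCNE2, probe set 205034_at read 7.82 on the syk array and 6.59 on the mock array, a difference of 1.23 or 2.35-fold. Its second probe set, 211814_s_at, read 5.97 on the syk array and 4.60 on the mock array, a difference of 1.37. That mock value is below the floor, which makes the second difference at least 2.30-fold. The CCNE2 probe sets therefore had the same direction and nearly the same size, and 277 of 12814 genes (2.16%) had a larger positive difference. For CCNE1, probe set 213523_at read 8.47 on the syk array and 7.66 on the mock array, a difference of 0.80 or 1.75-fold, with 6.40% of genes higher. The other CCNE1 probe set, 242105_at, read 3.45 on the syk array and 3.54 on the mock array, below the floor on both, so CCNE1 rests on 1 probe set, and averaging both gave 0.36.

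The promoter of CCNE1, a textbook E2F target, is shown because CCNE1 was among the members higher on the syk array. The promoter of CCNE2, the E-type cyclin with the larger difference, was left out of the search and is not described. Promoters are RefSeq windows of GRCh38.p14, 250 bases before to 50 after the annotated start, and windows at the outermost start of the gene were used for CCNE1, CDK4 and CDK6. An E2F-type core (the letters TTCCCGC or else TTCGCGC or else TTGGCGC or else TTGCCGC) and the E-box CACGTG, the site of MYC and related factors, were searched on both strands, and matches are in capitals. Of 35116 windows in the table, 13.0% held the E2F-type core and 7.26% the E-box. The CCNE1 window, with a GC content of 81.0%, held 0 of either, which says only that these letters are not in it.
CCNE1 promoter, chr19:29811741-29812040, plus strand: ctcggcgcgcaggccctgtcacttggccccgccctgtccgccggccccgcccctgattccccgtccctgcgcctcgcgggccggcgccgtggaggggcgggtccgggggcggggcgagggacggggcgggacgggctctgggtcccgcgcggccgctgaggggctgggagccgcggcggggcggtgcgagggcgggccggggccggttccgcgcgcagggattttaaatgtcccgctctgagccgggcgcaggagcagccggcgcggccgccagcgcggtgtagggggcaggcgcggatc

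The kinases of cyclin D parted. CDK6 was higher on the syk array in each of its 7 probe sets, and its 5 probe sets past the filter differed by between 0.84 and 0.94, a mean of 0.89 ± 0.04 (SD over 5 probe sets of the same 2 arrays, which are not replicates). The brightest, 224851_at, read 9.97 on the syk array and 9.03 on the mock array, or 1.92-fold. Probe set 224847_at read 8.99 on the syk array and 8.14 on the mock array. Probe set 224848_at read 7.80 on the syk array and 6.90 on the mock array. These 3 were well above the floor on both arrays and none reached 2-fold. Probe set 207143_at read 5.65 on the syk array and 4.81 on the mock array, and 243000_at read 5.21 on the syk array and 4.32 on the mock array, the last value being below the floor. The remaining probe sets, 231198_at and 235287_at, were below it on both arrays. Of 12814 genes, 551 (4.30%) had a larger positive difference than CDK6. CDK4 has 1 probe set, 202246_s_at, which read 10.78 on the syk array and 10.75 on the mock array, a difference of 0.03. Both kinases bind the same cyclins, yet CDK6 differed by 0.94 at its brightest probe set and CDK4 by 0.03.

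The promoter windows of CDK4 and CDK6 are shown because these paralogs differ in their difference between the arrays. The CDK4 window held 3 E-boxes on non-overlapping positions, at 216, 196 and 101 bases before the start (first base of each). Of all windows, 33 held 3 or more. The CDK6 window held 1 E-box, 31 bases into the transcript. The E2F-type core was matched in 0 of the windows shown. MYC, named after its value was seen, read 9.06 on the syk array and 9.03 on the mock array. A match is a description of the sequence and shows no binding.
CDK4 promoter, chr12:57752261-57752560, minus strand: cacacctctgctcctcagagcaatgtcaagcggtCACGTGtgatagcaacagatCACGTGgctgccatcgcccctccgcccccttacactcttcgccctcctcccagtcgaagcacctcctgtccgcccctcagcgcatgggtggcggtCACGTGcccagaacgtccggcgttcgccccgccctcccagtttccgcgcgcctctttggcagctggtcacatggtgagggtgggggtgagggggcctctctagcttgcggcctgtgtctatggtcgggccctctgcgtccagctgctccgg
CDK6 promoter, chr7:92836524-92836823, minus strand: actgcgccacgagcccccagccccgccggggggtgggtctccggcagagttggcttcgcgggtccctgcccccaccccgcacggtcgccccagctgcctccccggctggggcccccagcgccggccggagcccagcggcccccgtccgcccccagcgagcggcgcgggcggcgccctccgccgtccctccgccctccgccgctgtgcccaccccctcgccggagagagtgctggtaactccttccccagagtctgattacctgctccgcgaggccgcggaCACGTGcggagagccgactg

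CDK2, the partner of cyclin E, and RB1, the substrate, showed no difference near 2-fold. For CDK2, probe set 204252_at read 7.69 on the syk array and 7.70 on the mock array, a difference of -0.01 that became 0.01 after centring each array on its median. Probe set 211804_s_at read 5.25 on the syk array and 5.67 on the mock array, a difference of -0.42, and the third, 211803_at, was below the floor on both arrays. The E-type cyclins were thus 1.75-fold and 2.35-fold higher on the syk array while the brightest probe set of their kinase was nearly equal. For RB1, probe set 203132_at read 7.89 on the syk array and 8.27 on the mock array, a difference of -0.37 or 1.30-fold lower, close to the pooled SD between probe sets, and 19.1% of genes had a lower difference. Its other probe set, 211540_s_at, read 2.87 on the syk array and 3.22 on the mock array, below the floor on both. These are transcript levels, and RB phosphorylation, which sets its activity, was not measured here.

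**Figure D3:**
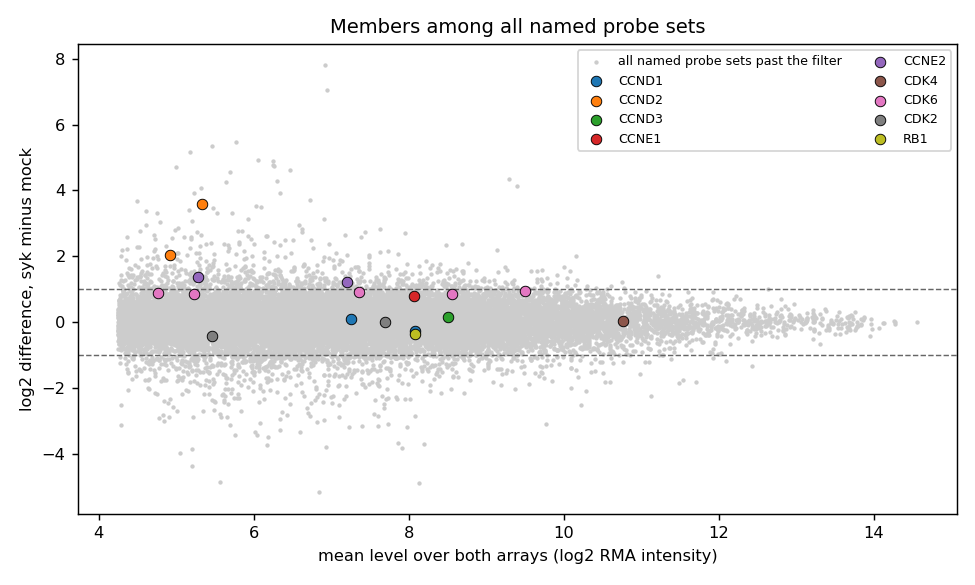
Log2 difference, syk minus mock (vertical axis), against the mean level over both arrays (log2 RMA intensity, horizontal axis) for the 23066 named probe sets past the filter (grey) and the 17 member probe sets among them (coloured by gene). Dashed lines mark 2-fold. CCND2 lies at the upper edge of the cloud at a mean of 5.33, and CDK4 lies at 0.03 at a mean of 10.76.

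Brightness bears on how a 2-fold difference reads. Between the 50th and 75th percentile of brightness, 3 of 6 member probe sets were at least 2-fold higher, against 3.97% of 10870 named probe sets, but 2 of the 3 are those of CCND2, which the syk array alone carried past the filter. At or above the 75th percentile, 1 of 11 was, the brighter one of CCNE2, against 2.76% of 12196. With genes restricted to that brighter range, CCNE2 was the 1 member past 2-fold, since CCND2 is too dim to enter.

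The other genes of the pathway were described as 7 lists with 80 genes, of which 74 were measured past the filter. Of the 74, 4 were higher and 2 were lower by 2-fold or more (8.11% in all), close to the 7.26% of all genes, and their median difference was 0.18. The RB relatives and the E2F and DP factors were higher by small amounts: 11 of 12 were above 0, against 50.8% of all genes, with a median of 0.44 and 0 past 2-fold. The largest was E2F6, a repressive E2F without an RB-binding region, at 9.06 on the syk array and 8.15 on the mock array (0.91). The exception, named after its value was seen, was the RB relative RBL2 at 6.66 on the syk array and 7.18 on the mock array, although its other probe set differed by 0.32. TFDP2, named for the same reason and counted above 0, had 4 probe sets that ran from -0.43 to 0.57. The signs counted here are those of the brightest probe sets.

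Of 17 E2F target genes of S phase entry, 12 were above 0, against 50.8% of all genes, with a median of 0.29. These signs are also those of the brightest probe sets. MCM5, TK1 and RRM1, named after their values were seen, had probe sets of both signs. By 2-fold or more, 2 were higher (3.61% of all genes) and 0 lower (3.65%). RRM2, named after its value was seen, fell just short at 1.999-fold higher. The replication licensing factor CDC6 read 8.38 on the syk array and 6.91 on the mock array, 2.78-fold higher, and its 2 probe sets differed by 1.29 and 1.48. The primase subunit PRIM1 read 9.19 on the syk array and 8.0 on the mock array, 2.28-fold higher by 1 probe set. TYMS, thymidylate synthase, named after its value was seen, lay on the other side at 11.44 on the syk array and 12.38 on the mock array, 1.91-fold lower, with its 2 probe sets past the filter at -0.94 and -1.06. Among 6 genes of CDK activation and inhibitory phosphorylation, 5 were above 0, against 50.8% of all genes, with a median of 0.50. The list mixes activators with inhibitors, so its median gives no direction of kinase activity. The gene below 0, named after its value was seen, was CDK7 at -0.31. CDC25A, the phosphatase that removes the inhibitory phosphate from CDK2, read 8.81 on the syk array and 7.76 on the mock array, 2.08-fold higher, with differences between 0.62 and 1.46 in its 3 probe sets.

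Of the 5 CDK inhibitors past the filter, 4 were below 0, against 47.8% of all genes, and 0 passed 2-fold. Their median was -0.23. The pooled SD of 0.35 is between probe sets of a gene and gives no error for this median. The gene above 0, named after its value was seen, was CDKN2A, at 5.07 on the syk array and 4.85 on the mock array. Both values are near the floor, and its 2 probe sets past the filter differed by -0.13 and 0.22. The largest difference was that of CDKN1C (p57), at 8.18 on the syk array and 8.86 on the mock array (-0.68). The later cyclins and CDK1 had a median of 0.14 over 4 genes and 0 past 2-fold. CDK1, the mitotic kinase, led them at 11.00 on the syk array and 10.66 on the mock array (0.34), with its 4 probe sets between -0.09 and 0.35. Genes of cyclin D and E turnover had a median of 0.01 over 11 genes, of which 6 were above 0 and 0 passed 2-fold. RBX1, the RING subunit of cullin ubiquitin ligases, led them at 11.08 on the syk array and 10.35 on the mock array (0.73).

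Transcription factors described at D-type cyclin genes had a median of 0.03 over 19 genes, with 1 higher and 2 lower by 2-fold or more, against 3.61% and 3.65% of all genes. LEF1, a partner of beta-catenin, read 8.43 on the syk array and 4.15 on the mock array, at least 12.7-fold higher against the floor by 1 of its 3 probe sets. The other LEF1 probe sets were below the floor on both arrays, with differences of 0 and -0.09, and the mean over all 3 was 1.40. Its relative TCF7L1 read 4.04 on the syk array and 7.48 on the mock array, at least 6.58-fold lower. Each of LEF1 and TCF7L1 passed the filter only through the array where it is high. STAT3, a factor activated by cytokine receptors, read 10.15 on the syk array and 11.37 on the mock array, 2.33-fold lower by its brightest probe set, although its 4 probe sets ran from -1.22 to -0.17 and their mean was -0.86.

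**Figure D4:**
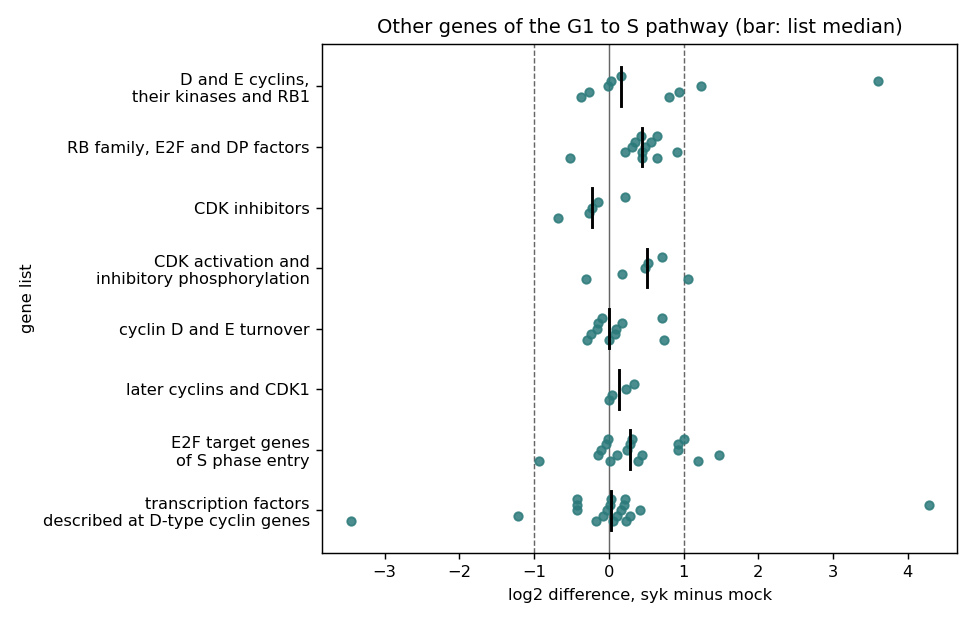
Log2 difference, syk minus mock (horizontal axis), of each gene past the filter in the 9 members (top row) and the 7 lists of other pathway genes. Black bars are list medians and dashed lines mark 2-fold. The RB, E2F and DP row has its median at 0.44 and the CDK inhibitor row at -0.23, while LEF1 and TCF7L1 form the ends of the bottom row.

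To see whether a member moved with its stretch of chromosome, the 5 nearest genes past the filter on each side in the RefSeq gene order were read beside it, dimmer genes between them being skipped. The 10 neighbours of CCND2 differed by between -0.64 and 0.64, with a median of 0.20 and 0 past 2-fold. CCND2 differed by at least 2.37 by its brightest probe set. With the median over its 4 probe sets it differed by 1.35 without the floor and by less than 2-fold with it. The 10 neighbours of CDK6 ran from -0.88 to 0.73 (median 0.15), and the 10 of CCNE1 from -0.60 to 0.51 (median -0.03). At the brightest probe set, both members lay above all of their neighbours. With the mean over the member's probe sets, CDK6 was at 0.71 and CCNE1 at 0.36, each below the highest of these neighbour values. Around CCNE2, 9 of 10 neighbours were above 0 (median 0.24), and around RB1, itself lower, 9 of 10 were as well (median 0.17), against 50.8% of all genes. The small GTPase GEM read 11.16 on the syk array and 9.15 on the mock array, 4.02-fold higher and more than CCNE2 itself. The stress-induced TP53INP1 read 6.34 on the syk array and 7.59 on the mock array, 2.37-fold lower. These were the 2 of 90 neighbours past 2-fold (2.22%), against 7.26% of all genes. The neighbours of CCND1, CCND3, CDK4, CDK2 and RB1 had medians between -0.09 and 0.18.

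**Figure D5:**
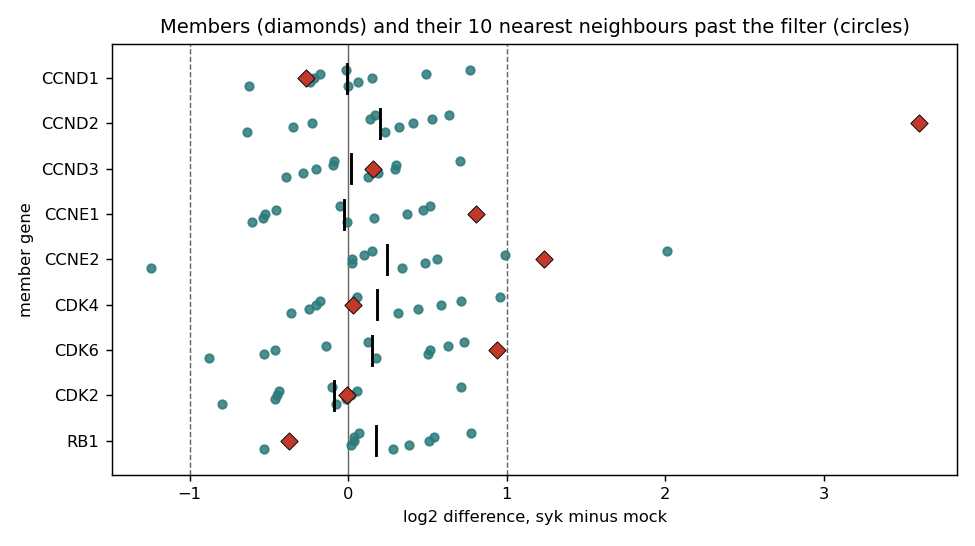
Log2 difference, syk minus mock (horizontal axis), of each member (red diamond) and its 10 nearest neighbours past the filter in gene order (circles, black bar at their median). Dashed lines mark 2-fold. CCND2 is drawn at its measured 3.60 (2.37 against the floor) with its neighbours within 0.64 of 0, and the CCNE2 row holds GEM at 2.01 and TP53INP1 at -1.25.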

How the data were processed

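Expression was measured in 2 stable Panc1 populations with 1 Affymetrix array each. The deposited values were log2 intensities made by the authors with RMA, per the submitters' processing notes, whose version and settings are not given in the sources used here. The log2 scale was inferred from the values, which run from 2.14 to 14.6 (54675 probe sets). No array column was left unused, and no detection calls were used.

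Names came from the platform annotation: 41097 had 1 symbol, 1801 had several and 11777 were not named here, and 19716 of 19775 genes matched a RefSeq gene ID (GRCh38.p14). Each gene was represented by its brightest probe set, judged by the mean of the arrays. The filter was a mean at or above 4.25, the 50th percentile, and the threshold was an absolute log2 difference of at least 1. The floor of 4.77 is the highest bacterial control value, the next highest control being 3.61. With 1 array per group no p-value, SE or interval can be given, and the number of arrays limits the precision. The genes named are the 9 members, SYK, genes of the lists and neighbours past 2-fold and the largest of each list, with exceptions marked. The members, lists, floor and motifs were chosen with earlier results of these data known. The calculation was tested on simulated data. Python 3.11.15, pandas 2.3.3 and statsmodels 0.14.6 were used.

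Alternatives were centring of each array on its median, removal of a loess trend (span 0.2), the floor, no filter, a filter at the 75th percentile, the mean or median over probe sets, and probe sets ending in _at alone.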

Additional observations from a re-analysis of the deposited data

How the results depend on the processing

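With the filter at the 75th percentile, 1 member probe set and 1 member gene, both of CCNE2, were past 2-fold (4 and 2 as reported). With probe sets ending in _at alone 1 member gene passed, since CCND2 has none of that kind. The other 82 counts and medians stayed within 1.5 times or within 0.35 of the reported value, the median of the 9 members running from 0.03 to 0.18. CCND2 kept its direction and stayed past 2-fold under each of the 5 settings computed for it (1.35 to 3.63), and CCNE2 under each of 6 (1.21 to 1.30). The mean and median over probe sets were taken without the floor, and no setting combined them with it. With the floor, the CCND2 probe sets differed by 2.37, 1.18, 0 and 0. The mean and the median of these values are both below 1, so with the floor CCND2 falls under 2-fold by either. CDK6 ran from 0.71 to 0.96 and CCNE1 from 0.36 to 0.82. Of the single-gene values, 10 moved by more than 0.35 and 99 did not. CCND3 turned to -0.05 with the mean or median over probe sets, and CDK2 ran from -0.42 to 0.01. The alternatives for the pathway lists and neighbours were added after the data had been seen. For CCND2, whose mock values are all below the floor, the difference was 2.37 with the floor at its brightest probe set. Without the floor it was 1.5 with the mean and 1.35 with the median over probe sets. No paired analysis was possible because each population has 1 array.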
